A study of Mus musculus with 18 samples.

Results

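Transcript levels in the testis of unstressed control mice were set against those in the brain of unstressed control mice. The comparison took 6 of the 18 RNA sequencing libraries of a study of chronic restraint stress, by their labels alone. They were 3 libraries labelled control testis and 3 labelled control brain. The labels give no genotype, strain, age or agent for these groups, and control animals are those not given the restraint. Testis and brain libraries of restrained mice, 3 of each, served to repeat the comparison, and 3 control liver libraries gave a level outside both tissues. The design text calls the 3 libraries of a tissue biological replicates and says no more, so p-values measure the spread between these libraries. Per the labels, a stranded kit for total RNA was used throughout. Each brain sample is labelled brain, although the extraction protocol mentions hippocampus; it is named brain in what follows.

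The testis is the organ in which sperm are made. In its tubules spermatogonia divide and enter meiosis, the resulting round spermatids replace their histones with protamines, and they grow an acrosome, which carries the enzymes and receptors for the egg, and a flagellum. Sertoli cells nurse the germ cells, and Leydig cells between the tubules make testosterone. The brain is built of neurons, which signal through synaptic vesicles and receptors, and of astrocytes, myelin-forming oligodendrocytes, microglia and blood vessels. Both tissues are known for the large number of genes they transcribe, and many genes first described in neurons are also transcribed in male germ cells.

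Total counts per library were 27.85 to 31.38 megacounts in control testis and 32.38 to 36.5 megacounts in control brain, over 34932 genes. Mitochondrial transcripts took 1.06% to 1.46% of counts in testis and 3.92% to 4.64% in brain. Control brain replicate 3 stood apart: 69 genes were at least 4-fold above both other brain libraries there, against 1 to 7 such genes in each of the other 5 libraries. Its summed level of striatal markers was 4173 TPM (a level per gene length, scaled to the same total in every library), against 310.4 and 354.2 TPM in brain replicates 1 and 2, so results that touch the striatum are given with and without it. Hepatocyte markers summed to at most 6.62 TPM in testis and 30.23 TPM in brain. Epididymis markers summed to 38.28 to 55.79 TPM in testis and at most 0.7175 TPM in brain. Of 11 listed only Wfdc10, Rnase10 and Defb21 had enough counts to test, and they had them through testis alone. Their calls toward testis were thus set by the count filter. Lcn5 was at 0 and Crisp1 reached at most 0.507 TPM in testis. Red blood cell genes summed to 42.96, 51.29 and 54.72 TPM in testis and 626.8, 410.7 and 1042 TPM in brain, with 4 of 5 tested higher in brain and Alas2 higher in testis, and their part in the results was not tested.

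Levels of the cell type markers were read in each library. Differences were common in general, with 18584 of 21087 genes tested called in either direction. Ddx4, the germ cell RNA helicase, was at 614, 579 and 586 TPM in testis and 4.49, 4.22 and 4.02 TPM in brain. Cyp17a1, an enzyme of androgen synthesis in Leydig cells, was at 152, 137 and 135 TPM in testis and at most 0.0923 TPM in brain. Rbfox3, which encodes the neuronal nuclear protein NeuN, was at 0.198, 0.247 and 0.111 TPM in testis and 203, 195 and 207 TPM in brain. For these 3 genes every testis library lay on one side of every brain library by a wide margin. Clu, a Sertoli cell marker that astrocytes also make, was at 689, 606 and 614 TPM in testis and 604, 621 and 581 TPM in brain, and there the groups overlapped. Sox9 and Amh, listed as Sertoli markers, were not higher in testis: Sox9 was at 10.6 to 11.4 TPM in testis and 24.0 to 27.6 TPM in brain. Some listed brain markers were higher in testis. Folr1, listed for choroid plexus, was at 8.48 to 9.12 TPM in testis and at most 0.364 TPM in brain. Prkcd, listed for thalamus, was at 127 to 135 TPM in testis and 5.94 to 9.97 TPM in brain.

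**Figure D1:**
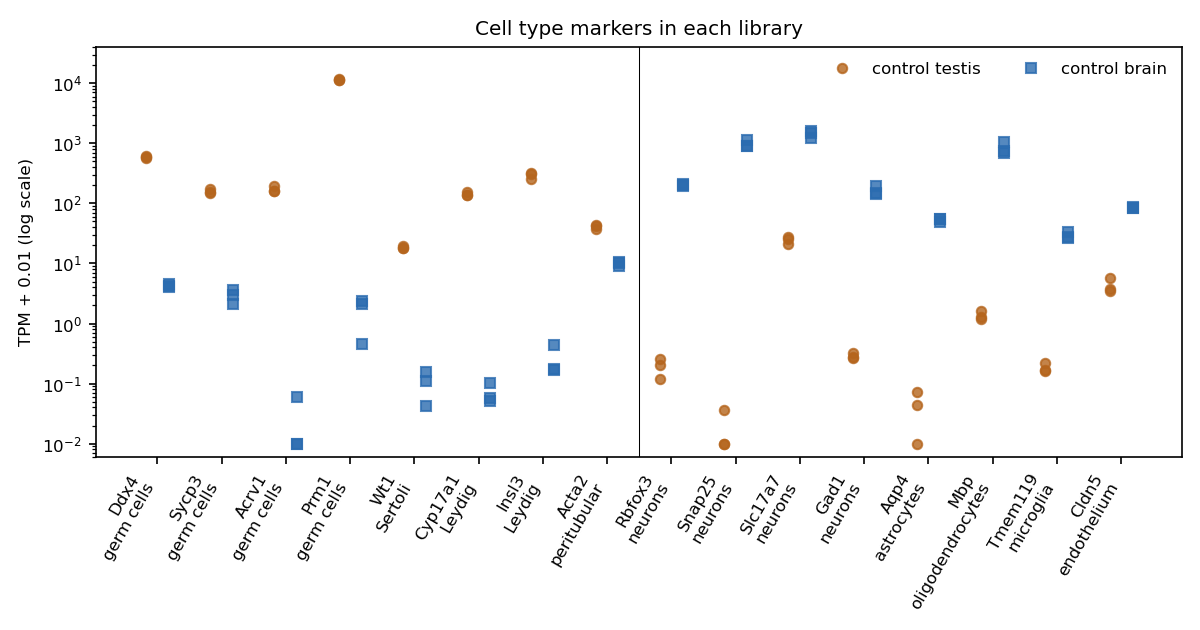
Levels of 16 cell type markers in each control testis (circles) and control brain (squares) library, on a log axis of TPM + 0.01. The germ, Sertoli, Leydig and peritubular markers plotted on the left are higher in testis. The neuronal, glial and endothelial markers plotted on the right are higher in brain. The groups do not overlap for any gene plotted, and the share of all genes without overlap is not given here. Of the Sertoli markers only Wt1 is plotted, and not Sox9 and Amh, which were not higher in testis, or Clu, whose groups overlapped.

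Of 21087 genes with enough counts to test, 9905 (47%) were higher in control testis and 8679 (41.2%) were higher in control brain (edgeR quasi-likelihood test, adjusted p under 0.05), and 2503 were not called. A difference of at least 4-fold was found for 6649 genes (31.5%) toward testis and 4758 genes (22.6%) toward brain. These shares are the background against which the gene groups that follow were read. Log2 fold changes are testis minus brain on the TMM scale of edgeR, on which the median of all tested genes was 0.2. With DESeq2 size factors that median was 0.37, with library size alone -0.10 and with log2(TPM + 1) -0.39, so calls toward testis made up 53.3% of all calls on the TMM scale and 43.3% on the TPM scale. Changes of less than about 1 on the log2 scale therefore depend on the scaling. Eef1a1, an elongation factor gene with 2140, 1946 and 2024 TPM in testis and 1978, 1998 and 2088 TPM in brain, had a log2 fold change of 0.72 on the TMM scale and 0.01 on the TPM scale. In bulk tissue, fewer cells of a type and less RNA per cell cannot be told apart.

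The number of genes detected was similar, but their kinds differed. At a TPM of at least 1 in all 3 libraries, 16628 genes were detected in testis, 15762 in brain and 10759 in liver. Testis and brain had 12109 in common, which is 72.8% of the testis set and 76.8% of the brain set. Protein-coding genes were near equal in number, with 13414 in testis and 13399 in brain and 10994 in both. Long noncoding RNA genes numbered 1677 in testis and 999 in brain, with 481 in both. Among 2455 long noncoding RNA genes tested, 54.8% were at least 4-fold higher in testis and 18% at least 4-fold higher in brain, with a median log2 fold change of 2.82. Pseudogenes had a median of 2.14 over 1195 tested, and reads shared with their parent genes make single pseudogenes uncertain.

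Among named long noncoding RNAs, 4930571K23Rik was at 1637, 1223 and 1268 TPM in testis and at 0 in all brain libraries. 1700008K24Rik was at 693, 761 and 797 TPM in testis and 0.191 to 0.661 TPM in brain. On the brain side, Meg3, an imprinted noncoding RNA, was at 1.05, 1.27 and 1.47 TPM in testis and 731, 868 and 756 TPM in brain (log2 fold change -8.57 ± 0.17, SE, edgeR adjusted p = 5.08e-10). Malat1, an abundant nuclear RNA, was at 47.9, 48.0 and 57.8 TPM in testis and 516, 556 and 551 TPM in brain. All 4 had groups far apart. Gm42418 also met the rule for named noncoding genes, at 1151, 2131 and 2293 TPM in testis and 17.6, 5.14 and 3.07 TPM in brain, and its testis values varied more than those of the others.

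The most abundant testis transcripts included those of protamines and transition proteins. Tnp2, a transition protein that stands between histones and protamines, was at 14271, 13890 and 14117 TPM in testis and 0.546, 0 and 0 TPM in brain. Prm2, a protamine that packs sperm DNA, was at 13212, 11291 and 12222 TPM in testis and 0, 0.117 and 0 TPM in brain. Prm1, its partner, was at 11776, 11310 and 11230 TPM in testis and 2.13, 0.446 and 2.32 TPM in brain (log2 fold change 13.42 ± 0.27, SE, edgeR adjusted p = 6.06e-10). The testis libraries lay close together and the brain libraries were at or near 0. Tnp1, another transition protein, was at 2132, 1720 and 1763 TPM in testis and had 0 counts in brain. Against a floor of 3 counts over the brain group it was at least 11002-fold higher in testis.

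Among others of the 15 most abundant transcripts at least 4-fold higher in testis, Smcp, a cysteine-rich protein of the sperm mitochondrial sheath, was at 7527, 5859 and 5905 TPM in testis and had 0 counts in brain. Oaz3, the germ cell antizyme, was at 4565, 4021 and 4074 TPM in testis and 9.89, 12.2 and 12.1 TPM in brain. Sord, sorbitol dehydrogenase, was at 2348, 2353 and 2457 TPM in testis and 33.0, 31.7 and 25.1 TPM in brain.

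Of 19 genes listed for spermatid nuclear proteins, 17 were tested, 16 were higher in testis and 1 was higher in brain, with a median log2 fold change of 9.41 (8.25 with genes at 0 counts set to their bound). The list runs from histone variants to the factors that open chromatin for protamines. Brdt, a reader of acetylated histones in spermatids, was at 208, 179 and 182 TPM in testis and 11.4, 11.9 and 11.4 TPM in brain. Chd5, a chromatin remodeller of both tissues, differed little, with 174, 172 and 168 TPM in testis and 139, 150 and 121 TPM in brain (log2 fold change 1.03, edgeR adjusted p = 4.72e-06). Rnf8, a ubiquitin ligase of the DNA damage response, was the member higher in brain, at 1.75 to 2.21 TPM in testis and 4.81 to 6.26 TPM in brain.

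Genes of the acrosome and of egg binding were higher in testis in 37 of 37 members tested, of 39 listed, with a median log2 fold change of 11.30 (11.10 with bounds). Adam3, a sperm surface protein needed for migration in the oviduct, was at 1274, 1116 and 1152 TPM in testis and at most 0.238 TPM in brain (log2 fold change 14.02 ± 0.28, SE, edgeR adjusted p = 5.76e-10). Spink2, a protease inhibitor of the acrosome, was at 1444, 996 and 1010 TPM in testis and had 0 counts in brain, at least 12170-fold higher in testis. Acr, the acrosomal protease acrosin, averaged 375 TPM in testis and 2.93 TPM in brain. The smallest difference was that of Spaca6, with a log2 fold change of 0.42 and means of 18.7 TPM in testis and 22.9 TPM in brain, and with TPM on a log scale this list had 36 members higher in testis and 1 higher in brain.

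Genes of the flagellum followed. Of 66 genes listed for the axoneme and the fibrous sheath, 64 were tested, 60 were higher in testis and 2 in brain, with a median of 6.92 (6.67 with bounds). Akap4, the scaffold of the fibrous sheath, was at 2556, 2155 and 2190 TPM in testis and had 0 counts in brain, at least 93687-fold higher in testis. Odf1, a protein of the outer dense fibres, was at 2660, 2990 and 3103 TPM in testis and had 0 counts in brain. Rsph1, a radial spoke protein, was at 2050, 1844 and 1761 TPM in testis and 3.95, 4.76 and 10.4 TPM in brain. All 3 are flagellar structure genes, and none of their testis values came near a brain value. Dnal1, a dynein light chain, went the other way, at 11.2, 12.1 and 12.9 TPM in testis and 64.8, 75.8 and 64.7 TPM in brain (log2 fold change -1.79 ± 0.09, SE, edgeR adjusted p = 9.45e-08). Rsph4a was also higher in brain, at 0.242 to 0.399 TPM in testis and 2.0 to 3.55 TPM in brain.

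The channels and signalling proteins that drive sperm motility were higher in testis in 23 of 24 members tested, with a median of 7.93. Catsper1, a pore subunit of the sperm calcium channel, was at 301, 225 and 235 TPM in testis and had 0 counts in brain, at least 7031-fold higher in testis. Catsperz, an accessory subunit, was at 784, 753 and 841 TPM in testis and 26.9, 22.5 and 15.2 TPM in brain. Slc26a3, the member not called, averaged 0.0937 TPM in testis and 0.138 TPM in brain.

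Meiotic genes were higher in testis in 35 of 38 members tested, of 42 listed, and 1 was higher in brain, with a median of 6.35. Syce1, a protein of the synaptonemal complex that holds paired chromosomes, was at 767, 610 and 626 TPM in testis and 0.410, 0.716 and 0.497 TPM in brain. Stag3, a cohesin subunit of meiosis, was at 226, 232 and 240 TPM in testis and 0.697 to 1.0 TPM in brain. Ccna1, the cyclin of the meiotic divisions, was at 228, 234 and 236 TPM in testis and 0.986 to 4.34 TPM in brain. The testis values of Stag3 and Ccna1 spread by only a few TPM. Mei4, a factor of meiotic DNA breaks, was at 0.275 to 0.430 TPM in testis and 0.838 to 1.54 TPM in brain, a call toward brain (edgeR adjusted p = 0.0315) that was lost without brain replicate 3 (edgeR adjusted p = 0.135) and with either of testis replicates 2 and 3 left out. It was also lost with DESeq2 size factors (edgeR adjusted p = 0.0639), with a replicate block (edgeR adjusted p = 0.0886) and with DESeq2 (adjusted p = 0.0969).

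The piRNA pathway, which silences transposons in germ cells by small RNAs bound to PIWI proteins, was higher in testis in 28 of 28 members tested, of 30 listed, with a median of 7.37. Mael, a factor of piRNA production, was at 1856, 1695 and 1702 TPM in testis and 0.462, 0 and 0 TPM in brain (edgeR adjusted p = 3.78e-09). Gtsf1, a cofactor of PIWI proteins, was at 270, 332 and 355 TPM in testis and at most 0.301 TPM in brain. Tdrkh, a Tudor protein, was at 29.5, 27.3 and 25.5 TPM in testis and 22.8, 27.7 and 24.1 TPM in brain, so its groups overlapped in TPM although the count test called it (log2 fold change 0.85, edgeR adjusted p = 6.66e-05).

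Spermatogonial genes did not follow the other germ cell lists. Of 24 listed and 23 tested, 11 were higher in testis and 11 were higher in brain, with a median of 0.03. Over all genes tested the shares were 47% and 41.2%, so the split of this list was near that of all genes. Among those higher in testis, Dazl, an RNA-binding protein, was at 108, 119 and 103 TPM in testis and 4.11, 4.37 and 7.38 TPM in brain. Dmrt1, a transcription factor of germ and Sertoli cells, was at 21.5, 19.6 and 20.4 TPM in testis and had 0 counts in brain. Among those higher in brain, Uchl1, a ubiquitin hydrolase named PGP9.5 in neurons, was at 35.2, 35.7 and 40.1 TPM in testis and 926, 1102 and 1072 TPM in brain (log2 fold change -4.10 ± 0.11, SE, edgeR adjusted p = 1.68e-09). Etv5, a transcription factor, was at 13.4, 13.5 and 15 TPM in testis and 115, 98.3 and 114 TPM in brain. Gfra1, a receptor for the factor GDNF, was at 2.80 to 3.17 TPM in testis and 16.9 to 34.2 TPM in brain, and its signalling partner Ret was at 0.362 to 0.453 TPM in testis and 1.23 to 2.25 TPM in brain. Zbtb16, Id4, Kit, Egr4, Foxo1, Nanos2 and Upp1 were the other members higher in brain. The Upp1 call, at 0.366 to 0.660 TPM in testis and 1.39 to 1.84 TPM in brain, was lost when brain replicate 1 or 2 or testis replicate 1 or 2 was left out, with a replicate block (edgeR adjusted p = 0.0892) and with DESeq2 (adjusted p = 0.108).

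The somatic cells of the testis were visible beside the germ cells. Leydig cell genes were higher in testis in 18 of 24 members tested and higher in brain in 5, with a median of 4.13. Insl3, a peptide hormone of Leydig cells, was at 314, 310 and 250 TPM in testis and 0.161, 0.168 and 0.437 TPM in brain (log2 fold change 10.70 ± 0.25, SE, edgeR adjusted p = 1.01e-09). Hsd3b6, a dehydrogenase of steroid synthesis, was at 132, 92.8 and 116 TPM in testis and 0.333 to 0.655 TPM in brain. Ptgds, a prostaglandin synthase also made by the meninges, was at 211, 196 and 142 TPM in testis and 1890, 1747 and 1019 TPM in brain. Por, Srd5a1 and Fads1, which act in electron transfer, steroid reduction and fatty acid desaturation, were also higher in brain.

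Sertoli cell genes were higher in testis in 20 of 30 members tested and higher in brain in 8, with a median of 3.8. Cst9, a cystatin-like protein, was at 225, 241 and 262 TPM in testis and had 0 counts in brain, at least 2255-fold higher in testis. Wt1, a transcription factor, was at 19.7, 17.7 and 18.2 TPM in testis and at most 0.147 TPM in brain. Ctsl, a lysosomal protease, was at 310, 333 and 310 TPM in testis and 135, 132 and 101 TPM in brain. These values did not overlap between the tissues. Among the members higher in brain, Gja1, a gap junction protein of astrocytes and Sertoli cells, was at 36.1, 40.1 and 37.7 TPM in testis and 186, 173 and 149 TPM in brain. Sox8, Sox9, Kitl, Trf, Etv5 and Cldn11 were also higher in brain, and the Cldn11 call was lost with DESeq2 size factors (edgeR adjusted p = 0.076) and without testis replicate 1 (edgeR adjusted p = 0.0653).

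The lists of neuronal genes lay toward brain. The 38 genes of the synaptic vesicle and its release were 38 of 38 higher in brain, with a median of -6.34. Snap25, a protein of the fusion complex, was at 0, 0.0264 and 0 TPM in testis and 1129, 884 and 884 TPM in brain (edgeR adjusted p = 6.79e-10). Cplx1, complexin 1, which clamps that complex, was at 1.33, 1.23 and 1.11 TPM in testis and 1010, 911 and 954 TPM in brain (log2 fold change -8.90 ± 0.13, SE, edgeR adjusted p = 3.69e-10). Slc17a7, which loads glutamate into vesicles, was at 21.2, 25.1 and 27.6 TPM in testis and 1480, 1612 and 1202 TPM in brain. No testis library reached a brain library in any of the 3, and Slc17a7 had the highest testis level of them. Of the 38 members, 21 were still at 1 TPM or more in all testis libraries.

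Genes of glutamate receptors and of the postsynaptic density were higher in brain in 43 of 44 members, with a median of -4.98. Camk2a, the kinase of synaptic plasticity, was at 0.130, 0.0722 and 0.108 TPM in testis and 1433, 1362 and 1166 TPM in brain. Nrgn, a calmodulin-binding protein of dendrites, was at 25, 24.4 and 31.1 TPM in testis and 3902, 3478 and 3451 TPM in brain. Grin2d, an NMDA receptor subunit, was the member higher in testis, at 46.1, 47.9 and 41.4 TPM in testis and 14.9, 17.1 and 14.0 TPM in brain (log2 fold change 2.27 ± 0.10, SE, edgeR adjusted p = 4.52e-08). Grin1, the subunit that NMDA receptors require, averaged 0.175 TPM in testis and 146 TPM in brain.

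Inhibitory synapses gave the list furthest toward brain, with 25 of 25 members tested higher in brain and a median of -8.44. Gabbr1, a subunit of the metabotropic GABA receptor, was at 8.46, 8.47 and 7.62 TPM in testis and 325, 307 and 355 TPM in brain. Voltage-gated channels were higher in brain in 34 of 35 members, with a median of -5.08. Cacna1h, a T-type calcium channel, was the member higher in testis, at 56.6, 74.5 and 74.6 TPM in testis and 25.9, 26.4 and 45.7 TPM in brain (log2 fold change 1.77 ± 0.23, SE, edgeR adjusted p = 7.78e-05). Scn4b, a sodium channel subunit, was at 0.0327 to 0.236 TPM in testis and 53.1, 41.3 and 465 TPM in brain, with a log2 fold change of -10.17 with all libraries and -8.16 without brain replicate 3.

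Neuropeptide genes were higher in brain in 22 of 28 members tested, of 31 listed, and higher in testis in 5, with a median of -5.93. Cck, cholecystokinin, was at 0.517, 0 and 0.118 TPM in testis and 1601, 1553 and 1160 TPM in brain. Cpe, the carboxypeptidase that trims peptide precursors, was at 65.4, 64.5 and 62.7 TPM in testis and 3575, 3948 and 3260 TPM in brain. Without brain replicate 3, 6 members were higher in testis and 21 in brain. The 5 members higher in testis with all libraries were all low. Penk, described further below, had a higher testis level than these but was not called with all libraries. Pomc, the precursor of the opioid endorphin and of melanocortins, was at 14.9, 14.6 and 15.4 TPM in testis and 6.36, 5.82 and 4.6 TPM in brain (log2 fold change 2.13 ± 0.20, SE, edgeR adjusted p = 8.05e-06). Agrp was at 5.85 to 7.09 TPM in testis and 1.45 to 2.57 TPM in brain, and Hcrt at 1.65 to 1.73 TPM in testis and at most 0.838 TPM in brain. Gal was at 1.26 to 1.93 TPM in testis and at most 0.588 TPM in brain, and Trh overlapped, at 2.75 to 4.54 TPM in testis and 1.66 to 3.54 TPM in brain. Agrp, Hcrt and Pomc are hypothalamic genes in the brain, and the hypothalamic markers Avp, Oxt and Pmch were each below 1 TPM in the brain libraries.

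Transcription factors and RNA-binding proteins of neurons were higher in brain in 28 of 32 members, with a median of -4.51. Celf4, a regulator of neuronal mRNA, was at 4.63, 4.23 and 4.21 TPM in testis and 436, 442 and 460 TPM in brain. Rbfox1, a splicing factor, was at 0.107, 0.108 and 0.117 TPM in testis and 265, 263 and 300 TPM in brain. Khdrbs3, another splicing factor, differed less, at 98.3, 89.5 and 91.2 TPM in testis and 281, 301 and 201 TPM in brain (log2 fold change -0.78). Ptbp2, the splicing repressor called neuronal PTB, was at 96.1, 99.0 and 98.5 TPM in testis and 108, 111 and 98.6 TPM in brain. Its call toward testis on the TMM scale (log2 fold change 0.59, edgeR adjusted p = 5.5e-05) turned to -0.11 on the TPM scale, where it did not pass.

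Among the 15 most abundant transcripts at least 4-fold higher in brain, Fth1, the ferritin heavy chain, was at 369, 343 and 344 TPM in testis and 4656, 4421 and 5218 TPM in brain (log2 fold change -3.05, edgeR adjusted p = 9.49e-09). Apoe, the lipid carrier made by astrocytes, was at 92.9, 69.7 and 82.6 TPM in testis and 2254, 2178 and 2437 TPM in brain. Ckb, brain creatine kinase, had a log2 fold change of -8.38, Cst3, a secreted protease inhibitor, of -3.39, and App, the amyloid precursor, of -4.41.

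**Figure D2:**
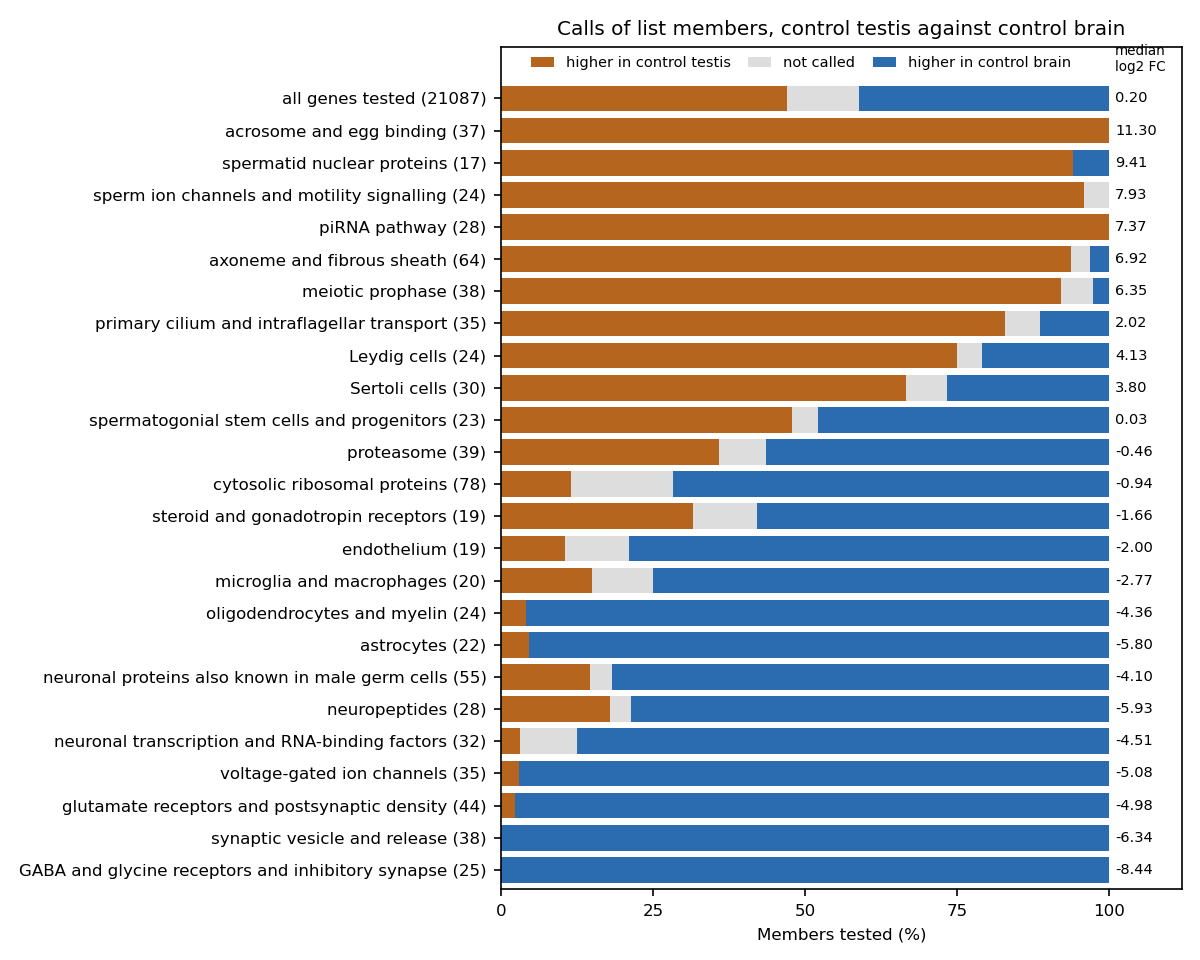
Share of the tested members of each gene list that were higher in control testis, not called, or higher in control brain (edgeR adjusted p under 0.05), with the number tested in brackets and the median log2 fold change on the right. The top bar gives all 21087 genes tested. Lists of sperm structure run almost wholly toward testis and lists of synapses almost wholly toward brain. Spermatogonial genes are divided, near the split of all genes tested. The proteasome is divided on this scale and lies more toward brain on the TPM scale.

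Regulators with a well known DNA motif were set beside promoter sequence. Rfx2, a factor of ciliary and spermiogenic genes that binds the X-box, was at 307, 348 and 337 TPM in testis and 2.77, 2.93 and 2.87 TPM in brain (log2 fold change 7.56 ± 0.11, SE, edgeR adjusted p = 3.69e-10). Crem, whose testis form drives spermatid genes through the cAMP response element (CRE), was at 110, 101 and 99.9 TPM in testis and 10.6, 10.4 and 10.7 TPM in brain (log2 fold change 4.0 ± 0.09, SE). Creb1, the related factor of neurons and other cells, was at 3.94, 3.97 and 4.04 TPM in testis and 15.4, 13.7 and 14.3 TPM in brain (log2 fold change -1.16). Rest, which silences neuronal genes outside neurons through the RE1 element, was at 6.09, 6.68 and 8.10 TPM in testis and 2.88, 3.20 and 2.55 TPM in brain (log2 fold change 1.98 ± 0.15, SE, edgeR adjusted p = 1.56e-06). Rest and Creb1 were chosen after their values were seen.

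Promoters (250 bases before to 50 after the start, from RefSeq on build GRCm38.p6) were matched for 14458 of the 21087 tested genes and searched on both strands. The CRE letters TGACGTCA were found in 2.6% of promoters of genes at least 4-fold higher in testis, 2.74% of those at least 4-fold higher in brain and 3.1% of all tested. The X-box letters GTTGCCATG were found in 1.56% of testis promoters, 0.685% of brain promoters and 0.92% of all tested. The left part of RE1, TTCAGCACC, was found in 0.372% of testis promoters, 0.935% of brain promoters and 0.498% of all tested, and the right part, GGACAGCGC, in 0.465%, 0.997% and 0.719% in the same order. Over all 27025 genes of the promoter table the shares were 2.03% for the CRE, 0.877% for the X-box, 0.433% for the left and 0.477% for the right part of RE1. These shares were not tested, and a match is only a match of letters.

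The 5 promoters below were chosen because they hold a match, and show how such letters lie in genes of either side. Each runs 5′ to 3′ on the gene's strand in lower case, with matches in capitals. Kif9 lies on the plus strand at chr9:110476708-110477007, Izumo1 on the plus strand at chr7:45621561-45621860, Sst on the minus strand at chr16:23890795-23891094, Syn1 on the minus strand at chrX:20920869-20921168 and Unc13a on the minus strand at chr8:71671708-71672007.
Kif9: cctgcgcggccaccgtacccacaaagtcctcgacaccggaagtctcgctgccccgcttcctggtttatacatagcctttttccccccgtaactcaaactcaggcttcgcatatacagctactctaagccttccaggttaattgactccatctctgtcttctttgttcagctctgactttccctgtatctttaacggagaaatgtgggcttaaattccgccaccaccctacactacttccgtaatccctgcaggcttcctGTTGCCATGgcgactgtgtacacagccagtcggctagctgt
Izumo1: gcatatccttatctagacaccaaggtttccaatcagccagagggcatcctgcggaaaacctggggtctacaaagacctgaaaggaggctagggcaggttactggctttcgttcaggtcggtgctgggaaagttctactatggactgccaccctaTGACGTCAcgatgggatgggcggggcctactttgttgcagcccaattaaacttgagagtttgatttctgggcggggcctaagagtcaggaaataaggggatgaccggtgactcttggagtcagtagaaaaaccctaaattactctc
Sst: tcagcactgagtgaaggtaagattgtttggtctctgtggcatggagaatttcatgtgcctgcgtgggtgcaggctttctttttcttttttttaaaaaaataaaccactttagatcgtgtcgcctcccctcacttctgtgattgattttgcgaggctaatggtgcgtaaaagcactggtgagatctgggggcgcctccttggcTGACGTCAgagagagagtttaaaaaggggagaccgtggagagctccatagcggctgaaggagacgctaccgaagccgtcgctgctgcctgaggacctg
Syn1: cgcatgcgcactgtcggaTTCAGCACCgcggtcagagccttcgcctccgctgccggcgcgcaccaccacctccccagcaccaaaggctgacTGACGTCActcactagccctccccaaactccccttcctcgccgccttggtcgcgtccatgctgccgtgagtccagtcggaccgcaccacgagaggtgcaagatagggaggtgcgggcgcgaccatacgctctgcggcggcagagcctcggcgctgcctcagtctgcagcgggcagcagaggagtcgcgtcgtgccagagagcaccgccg
Unc13a: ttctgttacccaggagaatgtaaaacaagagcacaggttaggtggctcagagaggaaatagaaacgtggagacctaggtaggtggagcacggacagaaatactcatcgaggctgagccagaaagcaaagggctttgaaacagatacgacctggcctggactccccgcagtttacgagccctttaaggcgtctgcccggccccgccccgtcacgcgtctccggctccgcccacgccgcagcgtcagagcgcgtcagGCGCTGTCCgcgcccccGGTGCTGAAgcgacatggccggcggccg
In Kif9 the X-box letters begin 9 bases after this start, and the table holds a second start of the gene for which they begin at -27. In Izumo1 the CRE begins at -96, in Sst at -48 and in Syn1 at -159. Syn1 also holds the left part of RE1 at -232. Unc13a holds both parts of RE1 on the opposite strand, the right part 5 and the left part 22 bases after the start.

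The levels of these 5 genes lay far apart between the tissues. Kif9, a kinesin of the sperm flagellum, was at 274, 266 and 274 TPM in testis and 4.41, 6.63 and 4.61 TPM in brain (log2 fold change 6.41, edgeR adjusted p = 1.52e-09). Izumo1, the sperm protein that binds the egg receptor, was at 80.4, 81.2 and 83.4 TPM in testis and 0.0668, 0.245 and 0 TPM in brain. Sst, the inhibitory peptide somatostatin, had 0 counts in testis and 1042, 1291 and 1358 TPM in brain, at least 6484-fold lower in testis. Its promoter and that of Izumo1 hold the same CRE letters although the genes are on opposite sides. Syn1, synapsin 1 of synaptic vesicles, was at 0.322, 0.463 and 0.0490 TPM in testis and 678, 687 and 610 TPM in brain. Unc13a, which primes vesicles for release, was at 0.743, 0.676 and 0.557 TPM in testis and 131, 145 and 135 TPM in brain.

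Glial and vascular genes were mostly higher in brain. Astrocyte genes were higher in brain in 21 of 22 members, with a median of -5.80, and Clu was the member higher in testis. Aldoc, the brain form of aldolase, was at 3.63, 3.63 and 3.52 TPM in testis and 656, 699 and 639 TPM in brain. Glul, glutamine synthetase, was at 342, 329 and 356 TPM in testis and 1316, 1209 and 1304 TPM in brain. Oligodendrocyte genes were higher in brain in 23 of 24 members, with a median of -4.36. Mbp, myelin basic protein, was at 1.6, 1.27 and 1.16 TPM in testis and 749, 681 and 1043 TPM in brain. Fa2h, the hydroxylase that makes hydroxylated myelin lipids, was higher in testis, at 94.5, 93.2 and 98.6 TPM in testis and 33.9, 31.8 and 50.9 TPM in brain (log2 fold change 2.0 ± 0.18, SE, edgeR adjusted p = 5.34e-06).

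Microglial and macrophage genes were higher in brain in 15 of 20 members, with a median of -2.77, and higher in testis in 3. Tmem119, a marker of microglia, was at 0.153, 0.155 and 0.210 TPM in testis and 26.5, 27.9 and 33.5 TPM in brain. Aif1, which encodes the macrophage protein Iba1, was at 442, 436 and 439 TPM in testis and 10.4, 8.95 and 14.3 TPM in brain (log2 fold change 5.99 ± 0.18, SE, edgeR adjusted p = 4.14e-09). The other macrophage genes in testis were far below Aif1, with Csf1r at 3.25 to 3.46 TPM, Adgre1 at 2.32 to 3.91 TPM and Cd68 at 2.50 to 4.65 TPM. Mrc1, a receptor of tissue macrophages, was at 15.7, 15.7 and 14.9 TPM in testis and 1.21 to 2.42 TPM in brain, and Lyz2 was also called toward testis (log2 fold change 1.0). Endothelial genes were higher in brain in 15 of 19 members, with a median of -2.0. Cldn5, a tight junction protein of the blood-brain barrier, was at 3.51, 5.72 and 3.77 TPM in testis and 82.7, 82.7 and 85.5 TPM in brain. Sox17 and Bsg were called toward testis, and Bsg, at 598 to 617 TPM in testis and 625 to 654 TPM in brain, turned from 0.65 on the TMM scale to -0.06 on the TPM scale.

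In many gene families in which a testis form is known beside a somatic form, the tissues differed in which member carried the level. Shares are of the summed TPM of the family members listed, with no test of the share. Pgk2, the phosphoglycerate kinase of sperm glycolysis, was at 1403, 1359 and 1402 TPM in testis and had 0 counts in brain, at least 29778-fold higher in testis. Pgk1, the X-linked form of other cells, was at 11.6, 15.1 and 14.6 TPM in testis and 589, 570 and 507 TPM in brain. Pgk2 thus took 99.0% ± 0.143 of the family in testis (SD, n = 3) and Pgk1 all of it in brain. Ldhc, the sperm lactate dehydrogenase, was at 3608, 3908 and 4041 TPM in testis and 0, 0.132 and 0 TPM in brain. It took 81.6% ± 0.705 of the family in testis (SD, n = 3), while Ldhb took 71.6% ± 3.05 in brain, at 108, 110 and 105 TPM in testis and 888, 811 and 934 TPM in brain. Ldha was higher in testis, at 748, 767 and 768 TPM in testis and 323, 380 and 338 TPM in brain.

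Families on the path from pyruvate to ATP also differed in their main member. Pdha2, an autosomal copy of the X-linked pyruvate dehydrogenase gene Pdha1, took 98.8% ± 0.151 of the pair in testis and had 0 counts in brain (SD, n = 3). Pdha1 was at 2.20, 2.55 and 2.01 TPM in testis and 143, 154 and 119 TPM in brain (log2 fold change -5.23 ± 0.14, SE, edgeR adjusted p = 1.83e-09). Cyct, testis cytochrome c, took 89.9% in testis and 0.259% in brain, and Cox6b2, a subunit of cytochrome oxidase, took 88.0% in testis and 0.805% in brain. Slc25a31, a sperm ADP/ATP carrier, took 54.7% in testis and 0.0353% in brain, with the rest of the testis level from Slc25a5 and Slc25a4. Gapdhs, the sperm form of the glycolytic dehydrogenase, was at 1910, 2113 and 2214 TPM in testis and 6.46, 8.58 and 7.56 TPM in brain. The somatic Gapdh was listed at only 1.26 to 2.37 TPM in testis and 15.1 to 18.4 TPM in brain. Gapdh has many near-identical copies in the genome, and how shared reads were counted is not given in the sources used here, so its level and the family shares are uncertain.

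Ion pumps and calcium signalling also changed members. Atp1a4, the sodium pump subunit of sperm, was at 591, 616 and 617 TPM in testis and 0.171 to 0.355 TPM in brain and took 90.3% of its family in testis. Ppp3cc, the catalytic calcineurin subunit of sperm, was at 323, 265 and 268 TPM in testis and 32.3, 32.3 and 24.6 TPM in brain, and took 78.7% of its family in testis and 2.47% in brain. Its regulatory partner Ppp3r2 took 95.9% of its pair in testis and 0.0706% in brain. Ppp3ca took 80.5% and Ppp3r1 99.9% of their families in brain. Ppp1cc, the phosphatase subunit of sperm motility, took 88.0% in testis and 18.0% in brain. Camk2g took 89.8% of the calmodulin kinase II level in testis although it too was higher in brain, at 19.0, 21.2 and 20.5 TPM in testis and 335, 313 and 220 TPM in brain, and Prkaca took 96.2% of the protein kinase A level in testis.

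Among proteins of the cytoskeleton, translation and protein turnover, several testis forms stood beside a somatic form. Tuba3a and Tuba3b took 45.5% and 38.0% of alpha tubulin in testis and at most 0.0122% each in brain, but their sequences are near-identical and their split is uncertain. Tuba1a, the main alpha tubulin of neurons, was at 77.8, 79.9 and 72.1 TPM in testis and 1596, 1762 and 1398 TPM in brain. Tubb4b took 91.6% of beta tubulin in testis and 10.02% in brain, and Tubb4a was at 0.199, 0 and 0 TPM in testis and 1201, 1129 and 1106 TPM in brain. Hspa2, the germ cell member of the HSP70 family, was at 1153, 1220 and 1247 TPM in testis and 70.2, 70.9 and 49.4 TPM in brain, and Hspa8 was at 126, 111 and 113 TPM in testis and 1139, 1121 and 1069 TPM in brain. Psma8, a proteasome subunit of spermatocytes, took 92.9% of its pair with Psma7 in testis and 0.501% in brain. Smc1b, the meiotic cohesin subunit, took 98.3% of its pair with the X-linked Smc1a in testis and 0.434% in brain.

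Ribosomal and RNA-binding families held testis forms and exceptions. Rpl10l was at 265, 400 and 393 TPM in testis and had 0 counts in brain, while the X-linked Rpl10 was at 24.7, 25.9 and 26.5 TPM in testis and 351, 314 and 338 TPM in brain. Rpl39l took 98.7% of its pair with Rpl39 in testis and 0.0645% in brain, though reads shared among ribosomal copies make these levels uncertain. Ybx2, which stores mRNA in germ cells, was at 2607, 2336 and 2241 TPM in testis and 9.87, 15.1 and 8.19 TPM in brain. Its relatives Ybx1 and Ybx3 were also higher in testis, with log2 fold changes of 3.44 and 6.08. Pabpc1, a poly(A)-binding protein, was at 1606, 1523 and 1513 TPM in testis and 74.4, 73.0 and 82.2 TPM in brain. Its family was listed as Pabpc1, Pabpc2 and Pabpc6 only, and of these it took 55.6% in testis. In brain it took 100%, since Pabpc2 and Pabpc6 had 0 counts there. Eef1a2, the elongation factor of neurons and muscle, was at 0.0849, 0.0431 and 0 TPM in testis and 1849, 1772 and 1746 TPM in brain (edgeR adjusted p = 3.69e-10). Cstf2t, known as the testis form of the polyadenylation factor CstF, was higher in brain, at 28.9, 34.5 and 30.4 TPM in testis and 88.4, 85.5 and 76.7 TPM in brain (log2 fold change -0.71 ± 0.09, SE, edgeR adjusted p = 7.39e-05), and Cstf2 was not called. Cstf2t averaged 65.0% of its pair with Cstf2 in brain. In testis the pair was near even, with Cstf2t at 52.1% on average and 48.3% to 54.9% by library. Of the PTB splicing repressors, Ptbp1 was higher in testis (log2 fold change 2.03), and Ptbp3 had 0.54 on the TMM scale and -0.15 on the TPM scale.

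**Figure D3:**
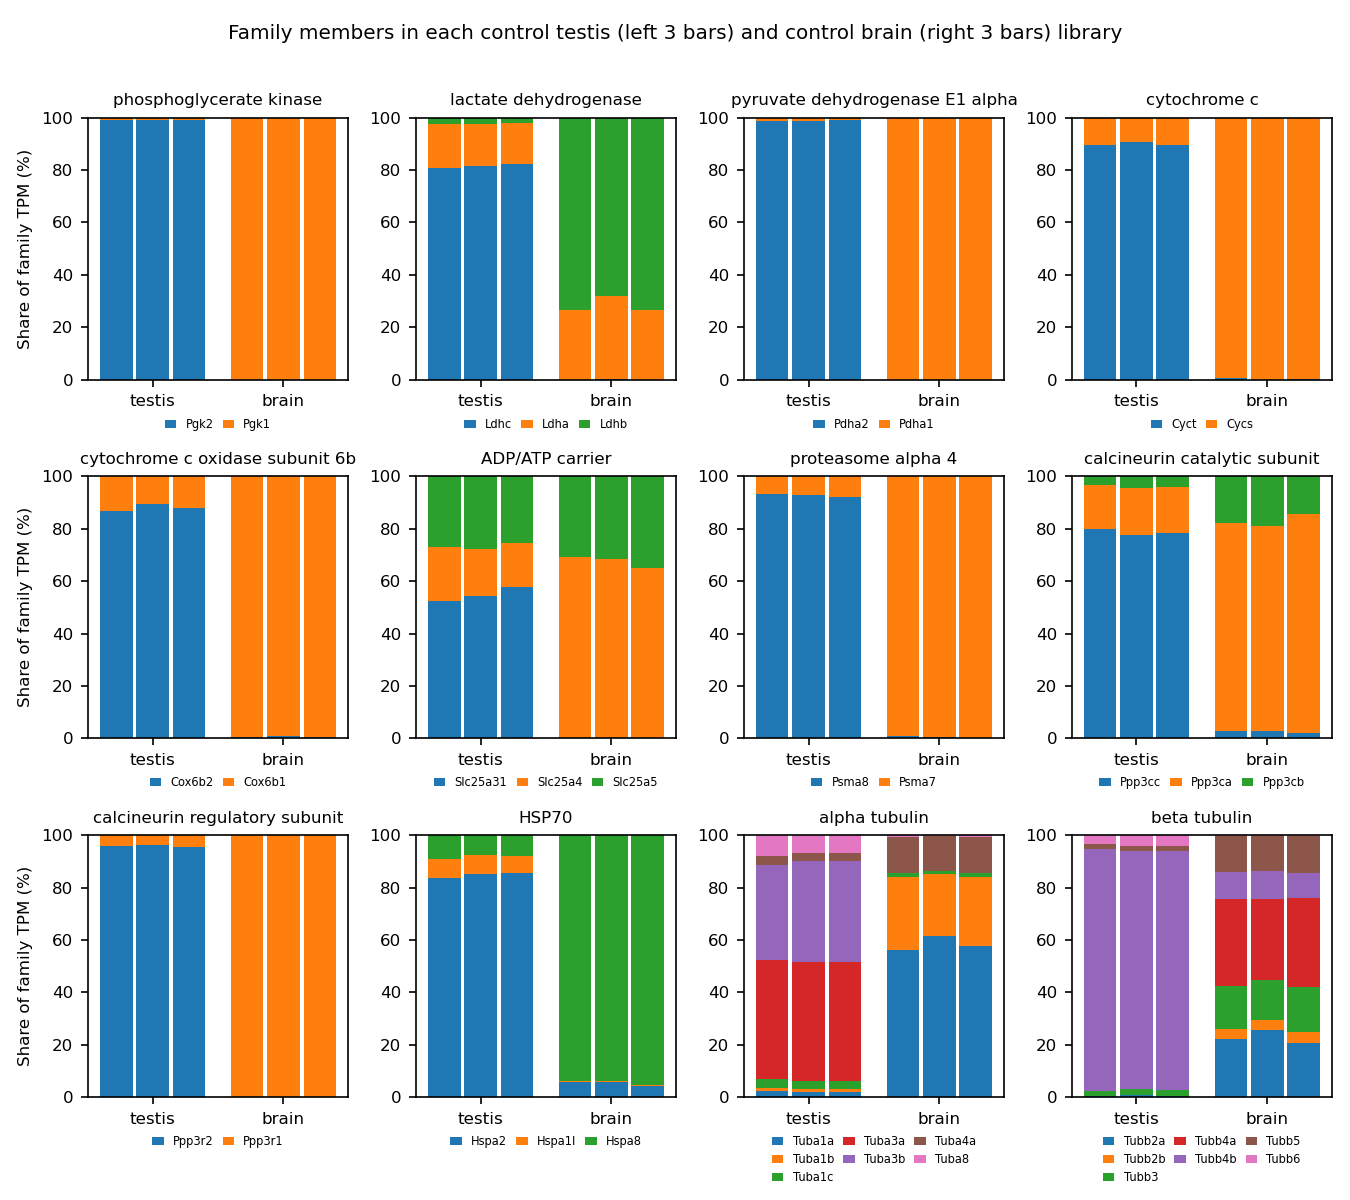
Share of each gene family's summed TPM by member, one bar per library, with the 3 control testis libraries on the left of each panel and the 3 control brain libraries on the right. Blue marks the testis form in the first 10 panels (Pgk2, Ldhc, Pdha2, Cyct, Cox6b2, Slc25a31, Psma8, Ppp3cc, Ppp3r2 and Hspa2), which holds from 54.7% to 99.0% of the family on average in testis and at most 5.37% in brain.

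A separate question was what the tissues share. A TPM of at least 10 in all 6 libraries was found for 5456 genes, which is 62.9% of the 8668 genes at that level in testis and 55.6% of the 9814 in brain. The 95% interval of the log2 fold change on the TMM scale lay within -1 to 1 for 2111 of them (38.7%). These are called shared, since a missed threshold would not show that levels are alike. Of the shared genes 88 were at 1 TPM or less in every control liver library, all protein-coding. Their number does not say that they are particular to testis and brain, since other tissues were not measured. Of these 88, on the TMM scale 26 were called toward testis, 26 toward brain and 36 not at all, with DESeq2 size factors 38, 19 and 31, with library size alone 12, 43 and 33, and on the TPM scale 0, 69 and 19. The split between the tissues thus turned with the scaling, and the TPM values of most are lower in testis. Membership turned with it too. With DESeq2 size factors 1855 of the 2111 and 78 of the 88 stayed in the set, and with library size alone 1746 and 65.

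Among the shared transcripts low in liver, Reep2, a protein that shapes the endoplasmic reticulum, was at 140, 146 and 146 TPM in testis and 205, 223 and 214 TPM in brain, and at most 0.336 TPM in liver (log2 fold change 0.14 ± 0.07, SE). Ahi1, a ciliary protein whose loss causes Joubert syndrome, was at 122, 128 and 126 TPM in testis and 120, 150 and 147 TPM in brain. Fabp3, a fatty acid carrier, was at 120, 107 and 119 TPM in testis and 305, 285 and 234 TPM in brain. Reep2 and Fabp3 kept a gap between the tissues in TPM while Ahi1 overlapped. Celf3, an RNA-binding protein of neurons, was at 83.9, 84.4 and 87.2 TPM in testis and 152, 188 and 227 TPM in brain. Cldn11, the tight junction protein of both myelin and Sertoli cells, was at 79.7, 90.8 and 87.9 TPM in testis and 180, 162 and 240 TPM in brain, and had 0 TPM in liver. Cpt1c, a carnitine palmitoyltransferase relative of neurons, was at 82.3, 89.4 and 101 TPM in testis and 134, 158 and 130 TPM in brain.

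Others of this group were signalling proteins. Pde1a, a calmodulin-dependent phosphodiesterase, was at 112, 84.8 and 87.0 TPM in testis and 145, 147 and 100 TPM in brain. Ppp2r2b, a regulatory subunit of protein phosphatase 2A, was at 74.3, 69.0 and 71.3 TPM in testis and 118, 134 and 105 TPM in brain, with a log2 fold change of -0.02. Srcin1, an inhibitor of Src kinase, was the most unequal of the 15 most abundant, at 61.5, 68.1 and 67.9 TPM in testis and 191, 190 and 190 TPM in brain (log2 fold change -0.82). Cds1, Acsbg1, Gramd1b and Ccsap were called toward testis with log2 fold changes of 0.56, 0.42, 0.50 and 0.58, which on the TPM scale were -0.12, -0.28, -0.21 and -0.14, and Ahi1 likewise had 0.56 and -0.14. Epb41l3 and Cacnb1, a membrane skeleton protein and a calcium channel subunit, were called toward brain with -0.35 and -0.49. A wider set of 386 genes was high in both tissues and low in liver without the interval, of which 182 were called toward testis, 166 toward brain and 38 not.

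**Figure D4:**
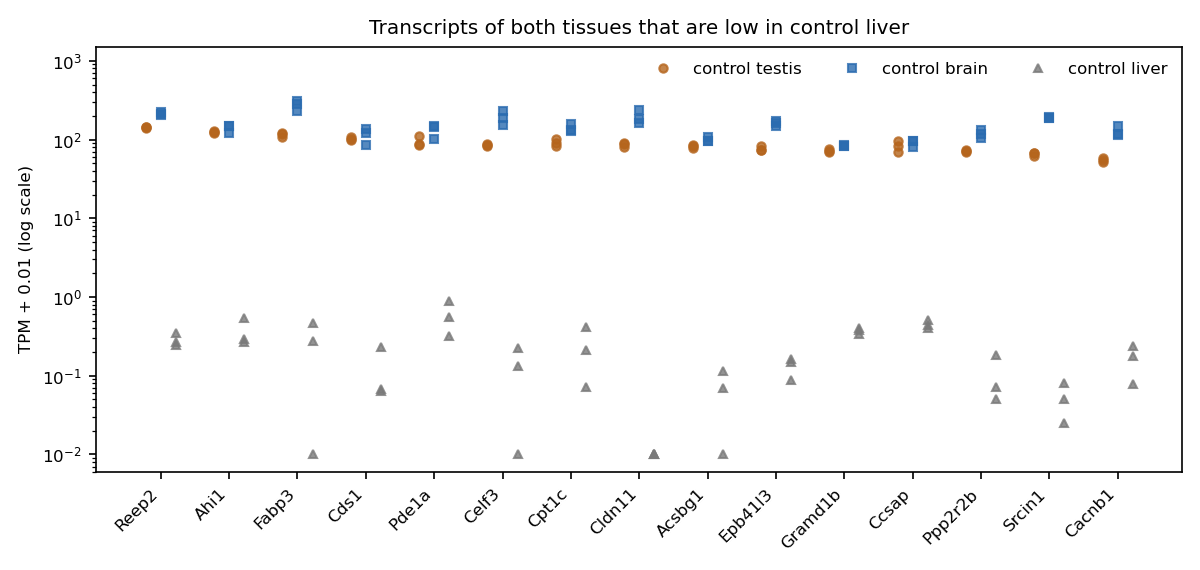
Levels of the 15 shared transcripts with the highest minimum over the 6 libraries, among those at 1 TPM or less in control liver, in control testis (circles), control brain (squares) and control liver (triangles), on a log axis of TPM + 0.01. Testis values run from 52.2 TPM for Cacnb1 to 146 TPM for Reep2, brain values lie at or above them for most genes, and liver values lie below 1 TPM.

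A list of 57 genes held proteins of neurons that are also known in male germ cells, with some of their widely expressed relatives. Of its members 55 were tested, 45 were higher in brain and 8 in testis, with a median of -4.10. Of the 57, 43 were at 1 TPM or more in all testis libraries. Those higher in testis were Crem, Ace, Cacna1h, Stx2, Vamp3, Snap23, Dnm2 and Kif9. Among them Stx2, Vamp3, Snap23 and Dnm2 are widely expressed and Kif9 is a kinesin of the sperm flagellum. The 8 are therefore not a count of neuronal proteins. Ace, angiotensin-converting enzyme with a known germ cell form, was at 374, 338 and 344 TPM in testis and 12.3, 12.4 and 12.5 TPM in brain (log2 fold change 5.53, edgeR adjusted p = 4.61e-10). Dnm2, the dynamin used outside neurons, was at 128, 123 and 122 TPM in testis and 32.7, 33.3 and 38.6 TPM in brain, while Dnm1, the neuronal dynamin, was at 14.3, 13.1 and 12.5 TPM in testis and 1083, 1046 and 838 TPM in brain.

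The membrane fusion proteins showed the same contrast between relatives. Stx2, a syntaxin, was at 29.1, 34.6 and 36.2 TPM in testis and 17.0, 16.7 and 19.0 TPM in brain, and Stx1a, its synaptic relative, was at 3.55, 4.72 and 4.25 TPM in testis and 438, 424 and 294 TPM in brain. Vamp3 was at 49.4, 51.1 and 54.8 TPM in testis and 31.8, 31.4 and 35.7 TPM in brain, and Vamp2 was at 21.9, 21.5 and 20.8 TPM in testis and 905, 882 and 898 TPM in brain. Snap23 was at 21.3, 18.7 and 19.8 TPM in testis and 11.6, 9.55 and 12.2 TPM in brain, next to a Snap25 near 0 in testis. In each pair the widely expressed relative was called toward testis and the synaptic one toward brain, and the log2 fold changes toward testis were at most 1.63. Penk, the enkephalin precursor, was at 275, 198 and 205 TPM in testis and 36.9, 63.2 and 1179 TPM in brain, and was not called (log2 fold change -0.23, edgeR adjusted p = 0.843). Without brain replicate 3 it was higher in testis (log2 fold change 2.89, edgeR adjusted p = 3.75e-07). Unc13b was also not called (log2 fold change -0.20).

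The primary cilium and intraflagellar transport, used by neurons for signalling and by spermatids to build the flagellum, were detected in both tissues, with 35 of 35 members at 1 TPM or more in all libraries of each. Of these, 29 were higher in testis and 4 in brain, with a median of 2.02, and 24 and 6 on the TPM scale. Ift74, a core transport protein, was at 345, 248 and 244 TPM in testis and 24.2, 22.1 and 20.3 TPM in brain (log2 fold change 4.36 ± 0.17, SE, edgeR adjusted p = 1.83e-08). Kif17, a transport motor, was at 275, 281 and 276 TPM in testis and 19.6, 21.3 and 39.1 TPM in brain. Cep290, a protein of the ciliary gate, had a log2 fold change of 4.17. Kifap3, a subunit of the kinesin-2 motor, overlapped at 295, 249 and 254 TPM in testis and 275, 283 and 245 TPM in brain, with 0.70 on the TMM scale and -0.01 on the TPM scale. Ift20, Bbs1, Bbs4 and Tulp3 were higher in brain, with log2 fold changes of -0.29, -0.31, -0.61 and -1.06. Not all of these calls held, since 2 members of the list were called toward brain with DESeq2 size factors, with DESeq2 and without testis replicate 2.

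Machinery that every cell uses differed less. Cytosolic ribosomal protein genes summed to 12250, 13030 and 13500 TPM in testis and 33890, 31980 and 33990 TPM in brain. Of 78 tested 56 were higher in brain and 9 in testis, with a median of -0.94, and 72 and 3 on the TPM scale. Rplp1, a stalk protein, was at 228, 349 and 385 TPM in testis and 2966, 2989 and 3349 TPM in brain. Proteasome genes summed to 4558, 4391 and 4469 TPM in testis and 5235, 5101 and 4860 TPM in brain, with 22 of 39 higher in brain, 14 in testis and a median of -0.46, and 28 and 8 with a median of -1.07 on the TPM scale. Psmc3, an ATPase of the regulatory particle, was at 635, 571 and 564 TPM in testis and 163, 166 and 146 TPM in brain. Psmb1, a core subunit, was at 98.2, 102 and 103 TPM in testis and 352, 337 and 331 TPM in brain.

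Marker lists of brain regions were summed in each library. Cortical markers summed to 63.14, 66.19 and 80.58 TPM in testis and 2620, 2433 and 1760 TPM in brain, and 14 of 15 members were higher in brain, with Cux1 the exception. Hippocampal markers summed to 45.69, 47.05 and 28.54 TPM in testis and 422.6, 462.5 and 396.7 TPM in brain. In control liver the cortical list summed to 582.1 to 804.3 TPM and the hippocampal list to 421.7 to 787.8 TPM. Both lists thus hold genes that are not particular to a brain region, and their sums cannot show which parts the brain libraries held. Of 15 hippocampal markers tested 11 were higher in brain and 2 in testis, with a median of -3.30. Neurod6, a factor of cortical and hippocampal pyramidal neurons, had 0 counts in testis and was at 122, 130 and 85.2 TPM in brain, and Prox1, a marker of dentate granule cells, was at 4.45 to 4.74 TPM in testis and 6.04 to 8.71 TPM in brain. Cerebellar markers summed to 13.59 to 16.87 TPM in testis and 373.6 to 441.4 TPM in brain, mostly from Itpr1 and Calb1, which other regions express, and Pcp2 of Purkinje cells stayed below 1 TPM. Of 11 cerebellar markers tested, 7 were higher in brain, with a median of -1.68, and Cbln3 and Barhl2 were called toward testis although both were below 1 TPM in all 6 libraries. Thalamic and hypothalamic markers were higher in testis in 7 of 10 members tested, led by Prkcd, a protein kinase C at 135, 128 and 127 TPM in testis and 5.94, 6.85 and 9.97 TPM in brain, and by Nr5a1 and Lef1, which act in gonads and other tissues.

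The striatal list varied widely between brain libraries. Of 11 members, 9 were higher in brain with a median of -5.81, and without brain replicate 3 there were 7 higher in brain and 2 in testis with a median of -3.28. Ppp1r1b, a phosphatase inhibitor of dopamine signalling, was at 1.03, 0.951 and 1.16 TPM in testis and 80.2, 83.5 and 1054 TPM in brain. Drd1, a dopamine receptor, had 0 counts in testis and was at 10.1, 9.88 and 115 TPM in brain. Drd2, the other main dopamine receptor, was at 7.66, 8.12 and 8.25 TPM in testis and 1.29, 1.82 and 152 TPM in brain, so that testis lay between the brain libraries. DESeq2 gave no adjusted p for 9 of the 11 members. Cortical markers were lowest in the same brain library, and whether the piece of tissue taken differed was not tested.

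**Figure D5:**
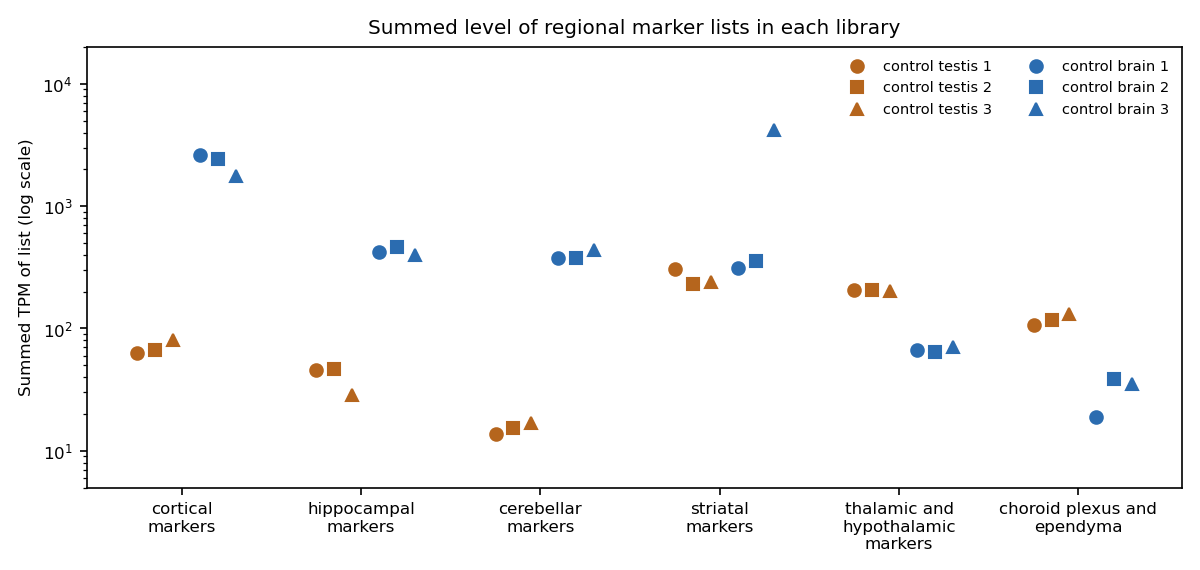
Summed TPM of 6 regional marker lists in each library, control testis on the left and control brain on the right of each list, on a log axis. Striatal markers reach 4173 TPM in control brain replicate 3 (triangle) against 310.4 and 354.2 TPM in the other brain libraries, while cortical, hippocampal and cerebellar sums differ by less between brain libraries.

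The tissue difference was repeated in stressed mice, whose libraries share no sample with the control libraries. Of 18153 genes called in controls and tested in stress, 18003 had the same direction and 16973 (93.5%) were called in the same direction. Of 11020 genes at least 4-fold different in controls, 10918 (99.1%) were called in the same direction. Called in opposite directions were 5 genes, Trh, Atp7a, Barhl2 and the pseudogenes Gm8186 and Rpl36-ps12. Trh, the thyrotropin-releasing hormone, was at 2.75, 4.54 and 4.5 TPM in control testis and 1.66, 2.42 and 3.54 TPM in control brain, and at 3.52, 2.63 and 3.8 TPM in stress testis and 8.0, 36.6 and 18.3 TPM in stress brain. In the 3 stress brain libraries choroid plexus markers summed to 32.91, 1451 and 930.3 TPM and striatal markers to 308.1, 709.6 and 2631 TPM, and their part in the 5 reversals was not tested. Stress brain replicate 3 carries a description code in the style of the control codes, while its title and treatment label say stress, and was kept as labelled. Without it, a setting chosen after seeing the data, 11066 (98.5%) of 11229 genes at least 4-fold different in controls were called in the same direction, and 6 called genes were called in opposite directions.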

How the data were processed

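Per the labels' protocols, RNA was extracted with RNeasy kits and total-RNA stranded libraries were made. The authors deposited raw counts per gene and TPM values on build mm39. Aligner, counter, annotation and strand setting: not given in the sources used here. Of the table's 34932 genes 34362 had a symbol, and 18 FPKM columns were not used. Counts were tested with edgeR 4.0.16 (R 4.3.3) by a quasi-likelihood fit of the 6 control libraries with filterByExpr and TMM scaling, with Benjamini-Hochberg adjustment and a threshold of 0.05. Deposited TPM served for levels. A gene with 0 counts in a group got a bound from a floor of 3 counts over that group, which covers counting error only. Alternatives were DESeq2 1.42.0 and its size factors, library size, limma 3.58.1 on log2(TPM + 1), no filter, a replicate block and each library left out. For the gene lists and families they were chosen after seeing the data. The 34 lists (879 genes, 867 of them in the table) and 26 families were chosen with earlier results of these data known. Named genes were the 15 most abundant genes at least 4-fold higher in each tissue, the 4 most abundant members of each list and those called the other way, family members, the 15 highest shared transcripts and the 4 most abundant noncoding genes. Other genes were chosen after their values were seen. Simulated counts were used to check the scripts. Some list and family members are not reported here.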

Additional observations from a re-analysis of the deposited data

How the results depend on the processing

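Counts of genes called toward testis ran from 8214 with limma on log2(TPM + 1) to 11643 without a filter, against 9905, and toward brain from 8170 with DESeq2 to 10754 with limma, against 8679. At least 4-fold toward testis, limma gave 4206 in place of 6649, and a TPM minimum of 5 gave 144 shared transcripts low in liver in place of 88. Leaving out each library gave 9844 to 10398 genes toward testis and 8618 to 8841 toward brain, and 76 to 95 shared transcripts low in liver. Under limma on log2(TPM + 1) the direction reversed for Ptbp2 (-0.11), Bsg (-0.06), Kifap3 (-0.01), Ptbp3 (-0.15), Ahi1 (-0.14), Cds1 (-0.12), Acsbg1 (-0.28), Gramd1b (-0.21) and Ccsap (-0.14). These are among 871 of 18584 called genes whose sign changed under limma, of which 387 were called in the opposite direction. Same-numbered testis and brain libraries did not deviate together, with correlations of 0.02, -0.015 and -0.015 over 8892 genes. A replicate block gave 9717 genes toward testis and 8450 toward brain. Without brain replicate 3 the striatal list kept its direction, with 7 members toward brain and 2 toward testis. The 3 libraries of a group limit the precision, and the scaling limits small differences.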

Other observations

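Protein-coding genes of the X chromosome lay apart from those of the autosomes. Of 726 X-linked protein-coding genes tested, 39.5% were higher in testis and 53.7% in brain, with a median log2 fold change of -0.83. The 16035 autosomal protein-coding genes tested gave 44.2%, 44.6% and -0.03. At least 4-fold higher in testis were 34.7% of the X-linked genes and at least 4-fold higher in brain 36.8%, against 26.3% and 23.3% of the autosomal genes. Of 33 Y-linked protein-coding genes tested, 28 were higher in testis and 4 in brain. Their median level in brain was 0 TPM, so many could pass the count filter only through testis. The direction of those was set by the filter. Among 8 tested genes of a list of Y genes, 4 were higher in testis and 3 in brain, with a median of 3.13. These shares were near the 47% and 41.2% of all genes tested. Zfy2, a zinc finger protein of spermatogenesis, was at 15.6, 13.7 and 15 TPM in testis and had 0 counts in brain, at least 620-fold higher in testis. Ddx3y, an RNA helicase, was at 5.16, 6.30 and 6.5 TPM in testis and 46.7, 39.9 and 40.8 TPM in brain.

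Receptors for steroids, gonadotropins and related hormones were higher in brain in 11 of 19 members tested and in testis in 6, with a median of -1.66. Nr3c1, the glucocorticoid receptor, was at 3.64, 4.27 and 4.2 TPM in testis and 66.2, 62.2 and 52.8 TPM in brain. Thra, a thyroid hormone receptor, was at 3.36, 3.95 and 3.59 TPM in testis and 449, 488 and 435 TPM in brain. Fshr, the receptor by which Sertoli cells sense follicle-stimulating hormone, was at 2.17, 1.77 and 1.67 TPM in testis and had 0 counts in brain. Choroid plexus and ependyma markers were higher in testis in 5 of 10 members tested and in brain in 1. Over all genes tested the shares were 47% and 41.2%, so the share toward testis was near that of all genes. Foxj1, a factor of motile cilia, led the list at 84.5, 94.3 and 105 TPM in testis and 3.66, 5.62 and 7.65 TPM in brain. Of 6 hepatocyte markers tested, 3 were called toward testis and 1 toward brain, all at low levels, and the share toward testis was again near that of all genes.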
